A study of Mus musculus with 2 samples.

Results

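The 6 genes that encode miR-124 and miR-9 in the mouse, Mir124a-1, Mir124a-2, Mir124a-3, Mir9-1, Mir9-2 and Mir9-3, were examined in microRNA-seq libraries from adult cortex. They were picked by gene symbol among the 2202 miRNA genes of the deposited tables, and all 6 were found. The choice was made with the low counts of the miR-124 copies already known, so their levels are given as a description. Both libraries were made from the left cerebral cortex. The mice were B6CASTF1/J females aged 2 months, an F1 hybrid of laboratory and CAST origin. They form 1 untreated group, with 1 library from each of 2 numbered females that share a donor identifier (animal 1 is female 03, animal 2 is female 04). Nothing in the labels says whether the spread between the libraries comes from the animals or from library preparation, and the 2 cannot be told apart.

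MicroRNAs are cut from hairpin transcripts, and the mature strand guides silencing of messenger RNAs that pair with its seed, the short run near its 5′ end. MiR-124 is the classic miRNA of differentiated neurons, where it holds down transcripts of non-neuronal cells. MiR-9 acts in neural progenitors, where it promotes the turn from proliferation to differentiation, and both of its arms give functional miRNAs. Each miRNA is made from several genes on different chromosomes, so a read of the mature strand alone does not say which gene it came from.

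The RefSeq miRNA table (GRCm38.p6) matched 3 of the 6 genes, the 3 miR-9 copies. Mir124a-1, Mir124a-2 and Mir124a-3 are named only. The mature miR-9 sequences are shown because they are letter for letter the same in every copy. Capitals mark the seed, bases 2 to 8, and each is written 5′ to 3′.
miR-9-5p: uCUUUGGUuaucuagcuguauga
miR-9-3p: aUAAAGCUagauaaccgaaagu
The seeds of both arms occurred in no other gene among the 954 with a mature sequence in that table.

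The 3 miR-9 hairpins are shown because only the letters outside the mature strands can tell the copies apart. Capitals mark the mature arms, miR-9-5p first and miR-9-3p second, and lower case marks the flanks and the loop. Mir9-1 lies at chr3:88215598-88215686, Mir9-2 at chr13:83738814-83738885 and Mir9-3 at chr7:79505264-79505353, all on the plus strand.
Mir9-1: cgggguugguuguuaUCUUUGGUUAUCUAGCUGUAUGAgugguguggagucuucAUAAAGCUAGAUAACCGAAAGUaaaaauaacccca
Mir9-2: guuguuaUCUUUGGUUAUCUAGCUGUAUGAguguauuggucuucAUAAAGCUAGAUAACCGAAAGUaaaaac
Mir9-3: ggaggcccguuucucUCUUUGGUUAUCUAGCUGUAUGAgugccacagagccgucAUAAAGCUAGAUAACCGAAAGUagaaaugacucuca
A read that runs past the mature strand can be placed once it reaches a letter that differs. For Mir9-3 that took 1 added base at the 5′ end of miR-9-5p, 4 at its 3′ end, 3 at the 5′ end of miR-9-3p and 2 at its 3′ end. Mir9-1 and Mir9-2 each needed 4 at the 3′ end of miR-9-5p, and 7 and 6 at the 5′ and 3′ ends of miR-9-3p. At the 5′ end of miR-9-5p these 2 copies did not differ before the annotated Mir9-2 hairpin began. Mir9-3 is therefore the copy that the fewest added bases set apart.

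All 6 genes lie at annotated long noncoding RNAs on their own strand (mm10, GENCODE M21). Mir9-1 (ENSMUSG00000106493.1) lies in an intron of Gm3764, Mir9-2 (ENSMUSG00000065424.2) in an exon of C130071C03Rik and Mir9-3 (ENSMUSG00000093238.1) in an intron of Mir9-3hg. Mir124a-1 (ENSMUSG00000065597.1), on chromosome 14 at 64590657 to 64590741, lies in an exon of Mir124a-1hg. Mir124a-2 (ENSMUSG00000093073.1), on chromosome 3 at 17795662 to 17795770, lies in an exon of Mir124-2hg. Mir124a-3 (ENSMUSG00000065454.2), on chromosome 2 at 180894040 to 180894107, overlaps the start of Gm27032 by 3 bases. For each of the 6 hairpins, both other copies of the same miRNA hold an identical run of at least 22 bases.

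The libraries held 4415759 reads counted at miRNA genes in animal 1 and 2279562 in animal 2. Unmapped reads were 23.4% and 47.1% of all reads. Reads mapping to several places are listed apart from the genes and numbered 5063531 and 2585568, or 48.9% and 48.2% of mapped reads. Levels are CPM, the count scaled to 1000000 reads counted at genes. Reads came from RNA under 30 nucleotides, so each stands for about 1 mature strand and levels were not scaled by gene length. Where a gene had 0 counts, 3 counts were taken as a rough upper limit, the floor, which corresponds to 0.679 CPM (animal 1) or 1.32 CPM (animal 2). Intervals are exact Poisson or Clopper-Pearson 95% intervals and cover the counting error of reads only. Several reads may be PCR copies of 1 molecule, which these intervals do not allow for.

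The miR-9 genes were counted at low levels that differed widely between copies. Mir9-3 had 202 reads in animal 1 and 94 in animal 2, which is 45.7 CPM (interval 39.7 to 52.5) and 41.2 CPM (33.3 to 50.5), with a mean of 43.5 ± 3.19 CPM (SD, n = 2). Mir9-1 had 62 and 13 reads, or 14.0 CPM (10.8 to 18.0) and 5.70 CPM (3.04 to 9.75), with a mean of 9.87 ± 5.90 CPM. Mir9-2 had 10 and 4 reads, or 2.26 CPM (1.09 to 4.16) and 1.75 CPM (0.478 to 4.49), with a mean of 2.01 ± 0.361 CPM. The order Mir9-3, Mir9-1, Mir9-2 held in both animals, and the values of neighbouring copies in that order did not overlap between animals. The counting intervals of Mir9-1 and Mir9-2 were apart in animal 1 but overlapped in animal 2.

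The miR-124 genes stood at the edge of detection. Mir124a-1 had 11 reads in animal 1 and 2 in animal 2, or 2.49 and 0.877 CPM, with a mean of 1.68 ± 1.14 CPM (SD, n = 2). Mir124a-2 had 6 and 4 reads, or 1.36 and 1.75 CPM, with a mean of 1.56 ± 0.280 CPM. Mir124a-3 had 4 and 0 reads, or 0.906 and 0 CPM. For that count of 0 the floor was 1.32 CPM, and the exact Poisson interval reached 1.62 CPM. The counting intervals of the 3 copies overlapped in each animal, and that of Mir9-2 overlapped them too, so these 4 genes could not be ordered at this depth.

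**Figure D1:**
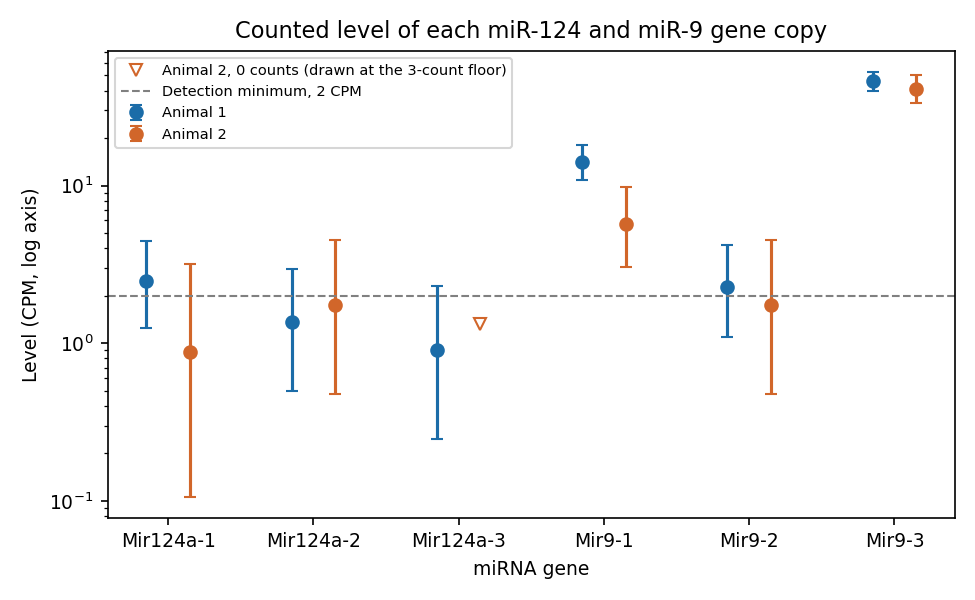
Level in CPM on a log axis for each of the 6 genes in animal 1 (blue) and animal 2 (orange); points are single libraries, bars are exact Poisson 95% intervals, the open triangle marks 0 counts at the floor of 3 counts and the dashed line is the 2 CPM detection minimum. Mir9-3 at 45.7 and 41.2 CPM and Mir9-1 at 14.0 and 5.70 CPM lie above the line in both animals, and the other 4 genes straddle it or lie below.

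Detection was set at a minimum of 2 CPM in each animal, which is 8.83 reads in animal 1 and 4.56 in animal 2. Mir9-1 and Mir9-3 passed, so 2 of the 6 genes were detected, against 18.8% of all 2202 genes. With a single read in either library as the rule, 6 of 6 were seen, against 33.9% of all genes. Mir9-2 and Mir124a-1 passed 2 CPM in animal 1 and missed it in animal 2.

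Summed over copies, miR-9 had 274 reads in animal 1 and 111 in animal 2, or 62.1 and 48.7 CPM, with a mean of 55.4 ± 9.44 CPM (SD, n = 2). Summed miR-124 had 21 and 6 reads, or 4.76 CPM (2.94 to 7.27) and 2.63 CPM (0.966 to 5.73), with a mean of 3.69 ± 1.50 CPM. The miR-9 sum was 13.0-fold above the miR-124 sum in animal 1 and 18.5-fold in animal 2. These sums cover only reads assigned to 1 copy. For each read counted at miR-9 there were 18480 reads mapping to several places in animal 1 and 23293 in animal 2, and for each read counted at miR-124 there were 241121 and 430928. Those reads come from every multi-copy sequence in the library, and how many were miR-9 or miR-124 was not analysed here.

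The animals were compared within counting error. For each gene, the part of its reads that came from animal 1 was given a Clopper-Pearson interval, and the gene was outside counting error when that interval excluded the part expected from the library totals. The comparison is between libraries of the same group, and no p-value was computed. Of the 415 detected genes, 27.0% were higher in animal 1 and 29.6% were higher in animal 2 by this rule. Of the 2 detected members, Mir9-1 was the one higher in animal 1, where its CPM differed by a log2 ratio of 1.30 (interval 0.42 to 2.29). Mir9-3 was inside counting error at 0.15 (-0.21 to 0.52), and none of the members was higher in animal 2 beyond it.

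The summed miR-9 level was also higher in animal 1, at a log2 ratio of 0.35 (0.03 to 0.68). That call rested on Mir9-1, since the sum of Mir9-2 and Mir9-3 had a log2(CPM + 1) ratio of 0.16 and was inside counting error. The summed miR-124 level differed by 0.85 (-0.50 to 2.45), which is inside counting error on 21 and 6 reads.

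Within miR-9, most assigned reads fell on Mir9-3. It took 73.7% of the 274 reads in animal 1 (Clopper-Pearson 68.1 to 78.8%) and 84.7% of the 111 reads in animal 2 (76.6 to 90.8%). Mir9-1 took 22.6% (17.8 to 28.0%) and 11.7% (6.39 to 19.2%), and Mir9-2 took 3.65% (1.76 to 6.61%) and 3.60% (0.990 to 8.97%). The intervals of the 2 animals overlapped for each copy, which does not show that the shares were equal. By the counting-error rule above, the level of Mir9-1 differed between the animals and that of Mir9-3 did not. The copy with the largest share was the one that needed the fewest added bases to be told apart. Mir9-1 and Mir9-2 needed the same number of bases, yet their shares did not overlap in animal 1 and overlapped in animal 2. Whether differences in sequence or in transcription set these shares was not tested.

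**Figure D2:**
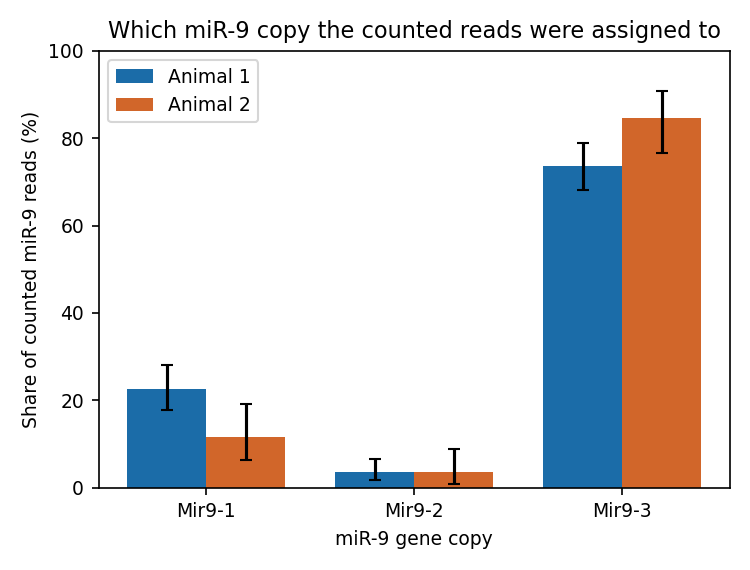
Share of all reads counted at miR-9 genes, in percent, that fell on each copy in animal 1 (blue) and animal 2 (orange), with exact Clopper-Pearson 95% intervals as error bars. Mir9-3 holds 73.7% and 84.7%, while Mir9-2 holds 3.65% and 3.60%.

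Other miRNAs of neurons were abundant in the same libraries. Of the 13 neuron-list genes other than miR-124, 13 were detected, with a median of 1781 CPM for animal 1 and 1971 for animal 2. They were led by Mir132, which neuronal activity induces, at 51982 ± 39023 CPM (SD, n = 2), and Mir128-1, which restrains neuronal excitability, at 12905 ± 4609 CPM. Mir138-1, a miRNA of dendritic spines, had 4677 ± 492 CPM, Mir137, a regulator of synapses, had 3695 ± 909 CPM and Mir138-2 had 3105 ± 346 CPM. The lowest was Mir218-1, a motor neuron miRNA, at 50.5 and 46.9 CPM, just above Mir9-3 at 45.7 and 41.2 CPM.

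Markers of liver, muscle and blood were set beside the members. Mir122, the main liver miRNA, had 60.9 and 36.8 CPM, above every single miR-124 and miR-9 gene in animal 1 and between Mir9-3 and Mir9-1 in animal 2. Of the 10 striated muscle genes, 6 had 0 counts in both animals and 2 were detected. These were Mir206 at 23.6 and 16.2 CPM and Mir499 at 6.11 and 2.19 CPM. The summed miR-124 level of 4.76 and 2.63 CPM was thus below Mir206 in both animals. The miR-124 sum was below Mir499 in animal 1, on 21 against 27 reads, and above it in animal 2, on 6 against 5. In both animals Mir499 lay inside the counting interval of the miR-124 sum. That sum, like the level of each miR-9 copy, holds only reads assigned to 1 copy. Mir122, Mir206 and Mir499 share no stretch of 22 bases with another hairpin. Of the muscle genes with 0 counts, Mir133b and Mir208b share none either. Mir1a-1, Mir1a-2, Mir133a-1 and Mir133a-2 do share such a stretch, so any reads of theirs may lie among those mapping to several places. These comparisons are therefore of counted reads and not of miRNA amounts. The 3 erythroid genes, which mark residual blood, summed to 459 CPM in animal 1 and 91.2 in animal 2, and all 3 were detected. Mir451a had 385 and 43.9 CPM, Mir144 had 40.8 and 9.21 CPM and Mir486 had 33.5 and 38.2 CPM. Mir451a and Mir144 were thus higher in animal 1, as were Mir9-1 and the miR-9 sum, while Mir486 was lower there. By the counting-error rule, 27.0% of the 415 detected genes were higher in animal 1. The part of blood in the Mir9-1 and miR-9 differences was not tested.

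**Figure D3:**
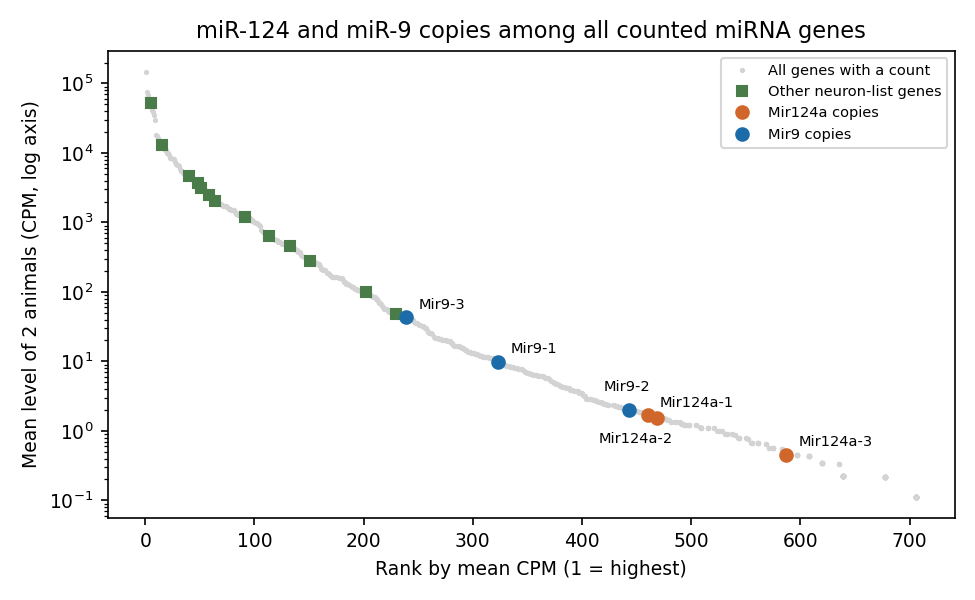
Mean CPM of the 2 animals on a log axis against rank for all 746 genes with a count (grey), the 13 other neuron-list genes (green squares), the miR-9 copies (blue) and the miR-124 copies (orange). The neuron-list genes run from 51982 to 48.7 CPM, while Mir9-3 follows at 43.5 CPM and Mir124a-3 is lowest at 0.453 CPM. Reads mapping to several places are left out of all levels.

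In the ranking of all genes by mean CPM, Mir9-3 was 239th, Mir9-1 323rd and Mir9-2 443rd. Mir124a-1, Mir124a-2 and Mir124a-3 were 460th, 469th and 587th. Taken as 1 gene, summed miR-9 would rank at 222 and summed miR-124 at 396. The genes closest to the miR-9 sum, by Euclidean distance of the 2 log2(CPM + 1) values, were Mir491 at a distance of 0.11, Snord43 at 0.18 and Mir3086 at 0.20. Those closest to the miR-124 sum were Mir1949 at a distance of 0 (the same 21 and 6 counts), Mir5134 at 0.12 and Mir7023 at 0.16. Distances over 2 libraries describe level alone.

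Most other miRNAs with numbered copies that were seen at all were counted at higher levels. The tables hold 53 families whose symbols differ in a final copy number alone, with 138 genes. Apart from miR-9 and miR-124 there were 51 such families with 132 genes, of which 41 genes (31.1%) were detected and 23 families had no read. Summed miR-9 ranked 20th of the 53 and summed miR-124 24th. The leading families were Mir128 at 15374 ± 5314 CPM (SD, n = 2), Mir138 at 7782 ± 146 CPM and Mir129 at 2657 ± 562 CPM, all of them brain miRNAs, then Mirlet7f at 2268 ± 32.3 CPM and Mirlet7c at 1772 ± 256 CPM. In 19 of the 51 families every copy was detected, and these had 2 copies each, against 3 for miR-9 and miR-124.

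**Figure D4:**
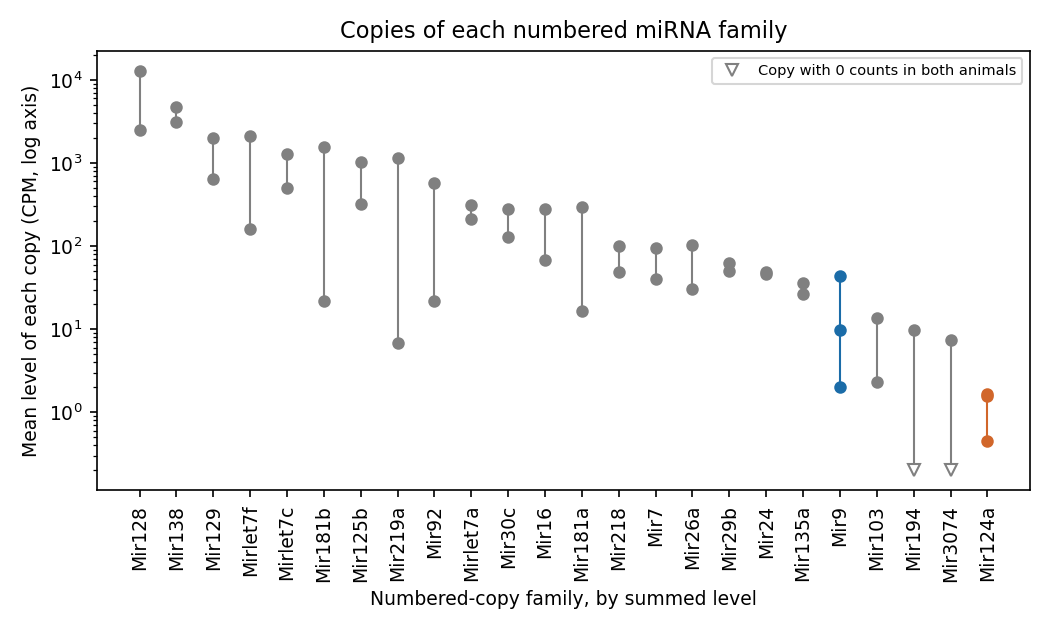
Mean CPM of each copy, on a log axis, for the 24 numbered-copy families with the highest summed level, ordered from left to right; dots are copies, lines join copies of a family and open triangles are copies with 0 counts in both animals. The miR-9 copies (blue) run from 43.5 to 2.01 CPM and the miR-124 copies (orange) from 1.68 to 0.453 CPM, at the low end of these families.

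Families differ in whether a copy has a mature arm of its own. Of the 954 genes with mature sequences, 36 had no arm that was absent from other hairpins, and the 3 miR-9 copies are among them. Of these 36 genes 7 were detected (19.4%), with a median of 0 CPM in both animals. Of 54 genes with some arm of their own and some shared, 36 were detected (66.7%), with medians of 26.5 and 29.6 CPM. Of 864 genes with all arms their own, 307 were detected (35.5%), with medians of 0.679 and 0.439 CPM. Among the 36 genes, Mir9-3 ranked 5th, after Mirlet7c-2 at 1276 ± 179 CPM, Mir219a-2 at 1150 ± 731 CPM, Mir129-1 at 647 ± 237 CPM and Mirlet7a-1 at 313 ± 1.08 CPM. Mir9-1 ranked 6th and Mir9-2 8th.

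The bases needed to set a copy apart were also counted in the other 33 of these genes. With 1 to 2 added bases 4 of 9 genes were detected, with 3 to 4 bases 1 of 3, and with 5 or more 0 of 7. Another 14 were not resolved within the annotated hairpins and 0 of them were detected. Mir9-3, at 1 base, and Mir9-1, at 4, were detected, while Mir9-2, also at 4, was not. These are counts over few genes that differ in much besides their sequence, and no test was made of them.

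Genes with a unique hairpin on the same host transcripts were set beside the members at those loci. Only 2 miRNA genes lay within 10000 bases of a member on its strand, a window chosen after the annotation and counts had been seen. Mir3093, 341 bases from Mir9-1 in an intron of Gm3764, had 239 and 96 reads, or 54.1 and 42.1 CPM. It was 3.85-fold above Mir9-1 in animal 1 (counting interval 2.90 to 5.18) and 7.38-fold above it in animal 2 (4.12 to 14.4). Mir3078, 444 bases from Mir124a-1 in an exon of Mir124a-1hg, had 37 and 8 reads, or 8.38 and 3.51 CPM. It was 3.36-fold above Mir124a-1 in animal 1 (1.68 to 7.31) and 4.0-fold in animal 2 (0.798 to 38.7), the latter inside counting error. Neither hairpin shares a stretch of 22 bases with another. The neighbours are different miRNAs from the members, and the cause of these folds was not tested. Both neighbours, like Mir9-1, were higher in animal 1 beyond counting error, as were 27.0% of the 415 detected genes. The log2 ratios of CPM were 0.36 for Mir3093 (0.01 to 0.72) and 1.26 for Mir3078 (0.13 to 2.57). Mir124a-1 was inside counting error at 1.51 (-0.69 to 4.72).

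**Figure D5:**
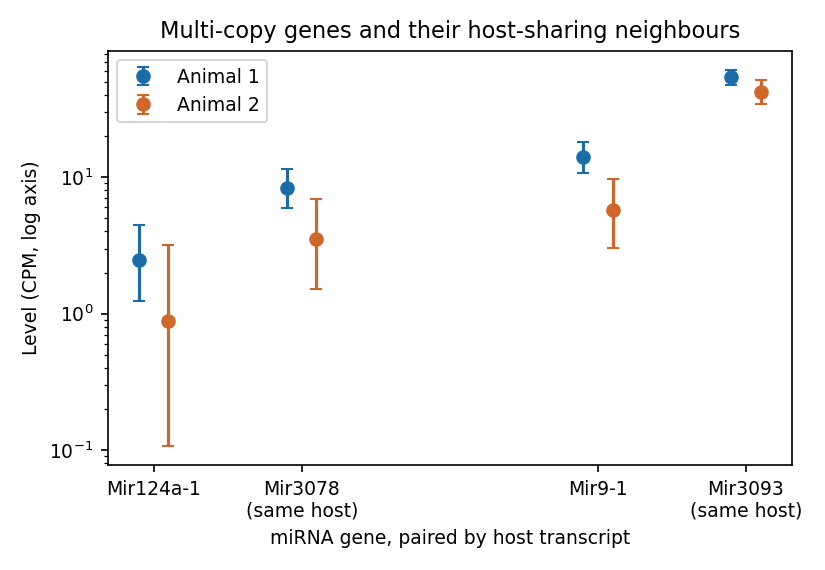
Level in CPM on a log axis of Mir124a-1 and Mir9-1 beside the miRNA gene on the same host transcript, Mir3078 and Mir3093, in animal 1 (blue) and animal 2 (orange), with exact Poisson 95% intervals. Mir3093 stands at 54.1 and 42.1 CPM, above Mir9-1 in both animals, while the intervals of Mir3078 and Mir124a-1 overlap in animal 2.

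Strand decided whether Mir9-1 was counted at all. On the opposite strand GENCODE places Gm25641, at 88215589 to 88215696 on chromosome 3, which covers Mir9-1. In the column that ignores strand Mir9-1 had 0 reads in both animals, against 62 and 13 on its own strand. Gm25641 had 0 reads on its own strand in both. The other 5 members had the same counts in both columns, and no member had a read in the opposite-strand column.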

How the data were processed

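MicroRNA-seq of total RNA from left cerebral cortex was available for 2 animals, 1 library each. The authors deposited raw counts of reads per miRNA gene, on mm10 with GENCODE M21 per the deposited metadata. For the aligner, trimming and read filters, nothing is given in the sources used here. The tables have a count column without regard to strand and one for each strand, with no header. The larger strand-assigned column was used, and 4 summary entries, among them reads mapping to several places, were left out of totals. CPM was the count over all gene counts times 1000000, and log2 ratios between animals are of CPM without a pseudocount unless given as log2(CPM + 1). Detection required 2 CPM in both libraries. With 1 group no differential test was run. TMM factors (edgeR 4.0.16), DESeq2 1.42.0 size factors, other pseudocounts and filters, the unstranded column and leaving out either library were tried. The interval rule was tested on simulated data. Sequences came from RefSeq (GRCm38.p6), matched to 968 genes by symbol and position. Named genes were the 6 members, the 5 highest neuron-list genes outside them, the 5 highest other numbered-copy families, the 3 genes nearest each sum and genes overlapping a member. Others were chosen after their values were seen. The members and lists were chosen with earlier results of these data known.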

Additional observations from a re-analysis of the deposited data

Results flagged for a closer look

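Reads mapping to several places lie outside the gene counts used above. They numbered 5063531 in animal 1 and 2585568 in animal 2, which is 1.15 and 1.13 times the reads counted at all genes. Their origin was not analysed here.

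The opposite-strand column of Gm25641, which lies across Mir9-1, held 62 reads in animal 1 and 13 in animal 2. These equal the counts of Mir9-1 on its own strand. Of 64 miRNA genes with another miRNA gene on the opposite strand, 29 were detected, and 26 of these had 0 reads in the unstranded column in both animals.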

How the results depend on the processing

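With TMM scaling, DESeq2 size factors or the unstranded column, the summed levels moved by less than the spread between the animals. Leaving out either library gave 2.63 to 4.76 CPM for miR-124 and 48.7 to 62.1 CPM for miR-9. Per 1000000 mapped reads, a scale chosen after seeing the data, they were 1.57 and 23.6. The higher miR-9 level in animal 1 stayed outside counting error under both scalings. Without Mir9-1, also chosen after seeing the data, the log2(CPM + 1) ratio was 0.16 and inside it. The number of members detected was 1 (Mir9-3) at 10 CPM or in the unstranded column, 6 with 1 read in either library, and 2 to 4 with either library left out. All genes detected numbered 746 with 1 read in either library and 307 at 10 CPM, against 415. Genes with an identical mature sequence in another gene had a median of 2.22 CPM, above the 0.559 CPM of genes without. That comparison covered 87 and 867 genes, those with a known mature sequence, of which 48.3% and 35.5% were detected. The other definitions covered all 2202 genes, so definition and gene set changed together. For a stretch of 22 bases between hairpins the direction turned, with 0 against 0.113 CPM and 6.49% against 29.7% detected. For numbered copies both medians were 0, with 31.2% against 18.0% detected. The cause was not tested. The miR-124 copies and Mir9-2 had at most 11 reads each, and reads mapping to several places were not assigned to any of them.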

Other observations

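Copies of other families also differed in level. In the 19 numbered-copy families with every copy detected, all of 2 copies, the leading copy held from 51.2% to 99.4% of the summed mean CPM, with a median of 75.7%. In families with both detected and undetected copies, Mir9-3 held 78.5% of the 3 miR-9 copies. With 2 copies each, Mir103-2 held 85.4%, Mir194-2 100% and Mir3074-1 100%. In the miR-124 family, where no copy was detected, Mir124a-1 held 45.6%. The leading copy there was Mir124a-1 in animal 1 (52.4% of 21 reads) and Mir124a-2 in animal 2 (66.7% of 6 reads). The lowest share a leading copy can have is smaller with 3 copies than with 2, so these shares are not compared. Mir219a-2, in a family known for oligodendrocyte differentiation, held 99.4% of its family at 1150 CPM, with Mir219a-1 at 6.81 CPM. Mir24-2 and Mir24-1 were nearly equal, at 49.0 and 46.6 CPM.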
